A study of Homo sapiens with 3 samples.

Results

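The genes described here are the vascular endothelial growth factors (VEGFs), their receptors and co-receptors, and a lymphatic surface protein. They were named by their function, not by their measured values, although earlier results of these data were known. They comprise the ligands VEGFA, VEGFB, VEGFC and PGF, the receptors FLT1, KDR and FLT4, the co-receptors NRP1 and NRP2, and podoplanin (PDPN). Of these 10 genes, 7 had a row in all 3 tables, among 21308 genes that did. FLT1, KDR and PDPN had no row in the tables used here and were not analysed here. RNA was sequenced as 100 bp paired-end reads from UM-UC-3, a human bladder cancer line. The cells were transfected with 75 nM of a negative control siRNA (1 library) or of either of 2 NONO siRNAs (1 library each), and RNA was taken after 48 h. NONO, a nuclear protein that binds RNA and DNA, takes part in transcription and splicing, and the study asked about its part in lymphatic spread. All 3 cultures carried a siRNA, so no untransfected cells were compared, and nothing in the labels says whether the libraries came from separate cultures.

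VEGF ligands are secreted dimers that bind receptor tyrosine kinases on endothelial cells. VEGFA drives the growth of blood vessels mainly through KDR, PGF and VEGFB bind FLT1, and VEGFC acts on lymphatic endothelium through FLT4. The neuropilins NRP1 and NRP2 present these ligands to the receptors and also bind class 3 semaphorins. Tumour cells are a known source of VEGFA and VEGFC, and bladder tumours spread early through lymphatic vessels.

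The siRNA strands given in the labels are shown because they define the groups. Sites that pair with a seed of NONO siRNA 1 or NONO siRNA 2 also occur in the 3′ untranslated regions (3′ UTRs) of some of these genes. Capitals mark bases 12 to 18, the site that pairs with the seed (bases 2 to 8) of the opposite strand.
Control siRNA: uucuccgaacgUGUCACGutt
NONO siRNA 1: ggcgaagucuuCAUUCAUatt
NONO siRNA 2: gcaucccuuacAGUUCGAatt

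The libraries were of like depth, with 27681990 to 29408573 reads. NONO stood at 823 CPM (read counts scaled to the library total) under the control siRNA and at 79.5 and 104 CPM under siRNA 1 and siRNA 2, and it passed limma's test (log2 folds of -3.36 and -2.98, adjusted p = 0.00698). The call was lost without a filter on low values (adjusted p = 0.566) and with at least 1 CPM required in every library (0.0516). It was kept in edgeR (adjusted p = 1.1e-05), in DESeq2 (1.3e-19) and in limma with upper-quartile scaling (1.5e-06). Across the 13922 genes tested, 30 passed at an adjusted p under 0.05, which is 0.215% of them (0.136% higher and 0.079% lower). That background moved with the settings, from 0 genes higher and 0 lower with either other filter to 161 and 80 with upper-quartile scaling. Markers of the labelled cell type were mixed: VIM had 1380, 947 and 960 CPM under the control siRNA, siRNA 1 and siRNA 2, KRT18 had 111, 49.0 and 93.3 CPM, and KRT8 had 77.1, 43.0 and 85.4 CPM, while KRT7, KRT19, UPK2 and GATA3 were at or under 2.04 CPM in every library, and EPCAM and CDH1 were not analysed here. Read counts come from whole cultures of the line, so a change in all cells and a change in only some cells cannot be told apart.

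Among the ligands, VEGFA, VEGFC and PGF stood lower with both NONO siRNAs and VEGFB did not, and none of the 4 passed the test. VEGFA (ENSG00000112715, GRCh38 chromosome 6, 43770184 to 43786487, plus strand) was covered by 4894 reads in control cells, 3659 after siRNA 1 and 4025 after siRNA 2. Its levels were 177 CPM (95% Poisson interval 172 to 182), 124 CPM (120 to 129) and 141 CPM (136 to 145). The control library was the highest, and the 3 intervals did not overlap; all such intervals cover counting error only. Relative to control, VEGFA was at 70.4% with siRNA 1 (exact 95% interval 67.4 to 73.5) and at 79.6% with siRNA 2 (76.3 to 83.0). The mean log2 fold of CPM + 1 was -0.42 with an SE of 0.23 (95% interval -0.93 to 0.10), and limma's adjusted p was 0.554. The spread behind that SE is taken from both siRNAs and from a trend over all genes, and it assumes that the lone control library varies alike.

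VEGFC, the lymphatic growth factor of the family (ENSG00000150630, chromosome 4, 176683538 to 176792727, minus strand), showed the same order of libraries. It measured 40.5 CPM in control cells (38.2 to 42.9), 25.8 CPM after siRNA 1 (24.0 to 27.7) and 33.7 CPM after siRNA 2 (31.7 to 35.9). Relative to control that is 63.6% (58.0 to 69.9) and 83.3% (76.4 to 90.9), so siRNA 2 left VEGFC between the control and siRNA 1. The mean log2 fold was -0.44 (SE 0.28, 95% interval -1.07 to 0.19), and limma's adjusted p was 0.607.

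PGF, placental growth factor (ENSG00000119630, chromosome 14, 74941834 to 74955784, minus strand), had the lowest folds of the 7 genes with each siRNA. Its reads numbered 117 in control cells, 48 after siRNA 1 and 81 after siRNA 2, or 4.23, 1.63 and 2.83 CPM. That is 38.6% of control with siRNA 1 (27.0 to 54.5) and 67.0% with siRNA 2 (49.9 to 89.7), and both intervals lay under the control level. On the log2 scale of CPM + 1, which understates folds this close to 1 CPM, the values were -0.99 and -0.45, with a mean of -0.72 (SE 0.33, 95% interval -1.47 to 0.04). limma's unadjusted p was 0.0600 and its adjusted p was 0.467, and edgeR on the recovered reads gave a log2 fold of -0.95 with an adjusted p of 0.422. Of all genes tested, 3.74% had a lower mean fold than PGF.

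VEGFB, a ligand of FLT1 (ENSG00000173511, chromosome 11, 64234538 to 64238793, plus strand), measured 48.7 CPM in control cells, 51.0 CPM after siRNA 1 and 46.1 CPM after siRNA 2. The control value lay between the others, at 105% (97.2 to 113) and 94.7% (87.7 to 102) of control. Its mean log2 fold was -0.01, with a 95% interval of -0.57 to 0.56, and limma's adjusted p was 0.995. The interval leaves room for a difference of the size seen for VEGFA.

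**Figure D1:**
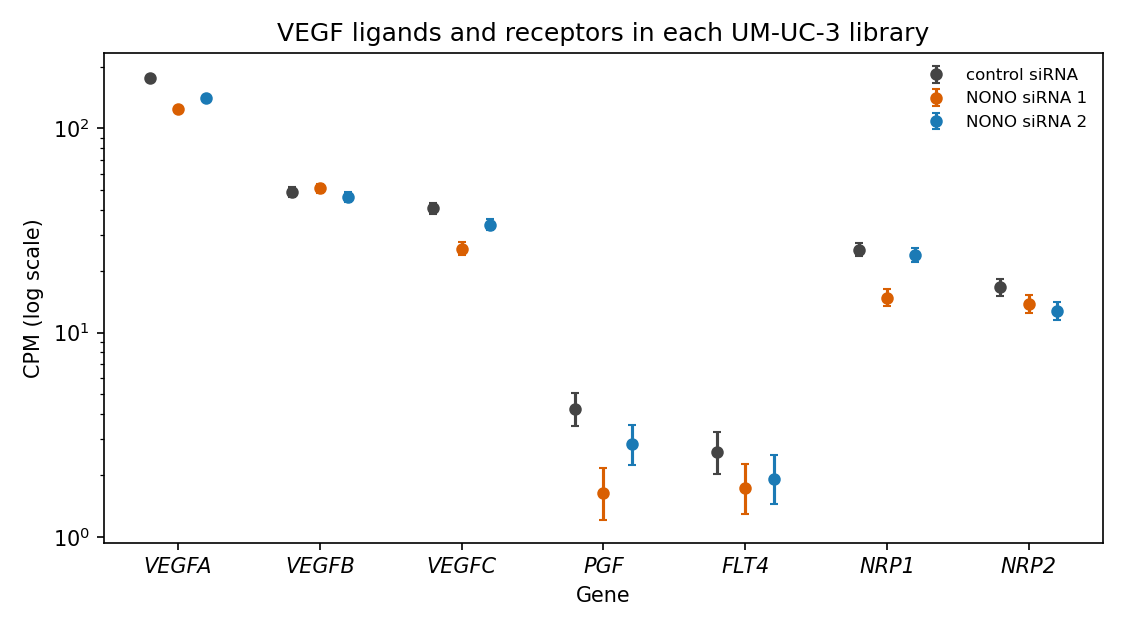
Level of each gene in each library, in CPM on a log scale, with exact 95% Poisson intervals as bars; each point is 1 library. VEGFA lies highest at 124 to 177 CPM and FLT4 and PGF lowest, at 1.63 to 4.23 CPM, and for every gene except VEGFB the control point is the highest.

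Of the receptors, FLT4 was covered by few reads and both neuropilins by 364 to 705 reads per library. FLT4, the VEGFC receptor of lymphatic endothelium (ENSG00000037280, chromosome 5, 180601506 to 180649624, minus strand), was covered by only 72, 51 and 55 reads under the control siRNA, siRNA 1 and siRNA 2, or 2.60, 1.73 and 1.92 CPM. Its Poisson intervals overlapped, reaching from 2.04 to 3.28 CPM in the control library and from 1.29 to 2.50 CPM over both siRNAs. Relative to control it stood at 66.7% (45.6 to 96.8) and 74.0% (51.1 to 107). The mean log2 fold was -0.35 (SE 0.29), and limma's adjusted p was 0.720.

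NRP1, co-receptor for VEGFA and class 3 semaphorins (ENSG00000099250, chromosome 10, 33177492 to 33336262, minus strand), was unlike in the siRNA libraries. It measured 25.5 CPM in control cells (23.6 to 27.4), 14.8 CPM after siRNA 1 (13.5 to 16.3) and 24.0 CPM after siRNA 2 (22.2 to 25.9). The siRNA 1 library was at 58.2% of control (51.5 to 65.7), while the siRNA 2 library, at 94.2% (84.7 to 105), overlapped the control. The mean log2 fold of -0.41 (SE 0.33) therefore joins unlike values of -0.74 and -0.08, and limma's adjusted p was 0.707.

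NRP2, the neuropilin that binds VEGFC and is known from lymphatic vessels (ENSG00000118257, chromosome 2, 205681990 to 205798133, plus strand), was about as low with either siRNA. It measured 16.6 CPM in control cells (15.1 to 18.2), 13.8 CPM after siRNA 1 (12.5 to 15.2) and 12.7 CPM after siRNA 2 (11.5 to 14.1). These are 82.9% (72.3 to 94.9) and 76.6% (66.6 to 88.1) of control. The mean log2 fold was -0.31 (SE 0.27, 95% interval -0.93 to 0.32), and limma's adjusted p was 0.735.

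**Figure D2:**
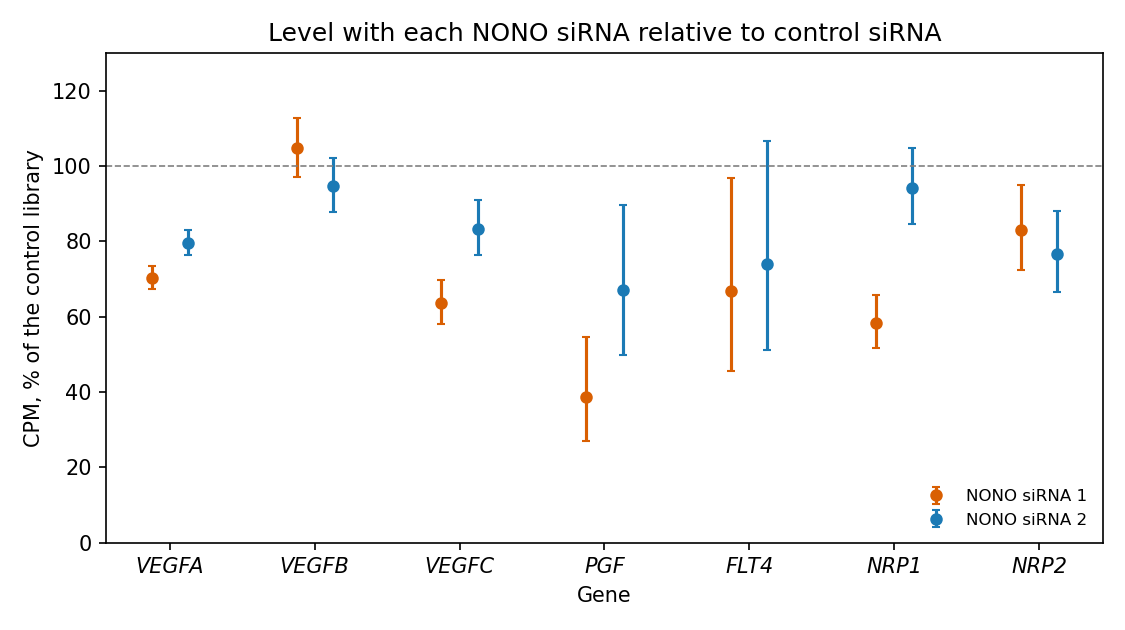
CPM with each NONO siRNA as a percentage of the control library (dashed line at 100%), with exact 95% conditional intervals for counting error as bars; each point is 1 library. For VEGFA, VEGFC, PGF and NRP2 both intervals lie under the line, whereas NRP1 is at 58.2% with siRNA 1 and 94.2% with siRNA 2.

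Of the 7 genes, 6 were lower than control with both siRNAs, against 34.5% of all genes tested, and none was higher with both, against 37.8%. No member was called by limma, where 0.215% of all genes were, and none had an unadjusted p under 0.05, against 11.4% of all genes. On the recovered reads, edgeR and DESeq2 called none of them either, against 0.92% and 1.56% of genes. The median log2 fold of the 7 was -0.50 with siRNA 1 and -0.30 with siRNA 2, and that of all genes tested was 0.03 and 0.01. The exact interval of the ratio to control lay under 100% for 6 of the 7 genes with siRNA 1, against 31.1% of all genes tested, and for 4 with siRNA 2, against 31.9%. It did so with both siRNAs for VEGFA, VEGFC, PGF and NRP2, against 19.7% of all genes tested. Reads at this depth thus often part libraries without passing limma's test. Both siRNAs were set against the same control library, so a value of that library out of line in a gene would move both folds of the gene together. Loss of NONO and anything the control siRNA did to its own culture cannot be told apart in these folds.

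**Figure D3:**
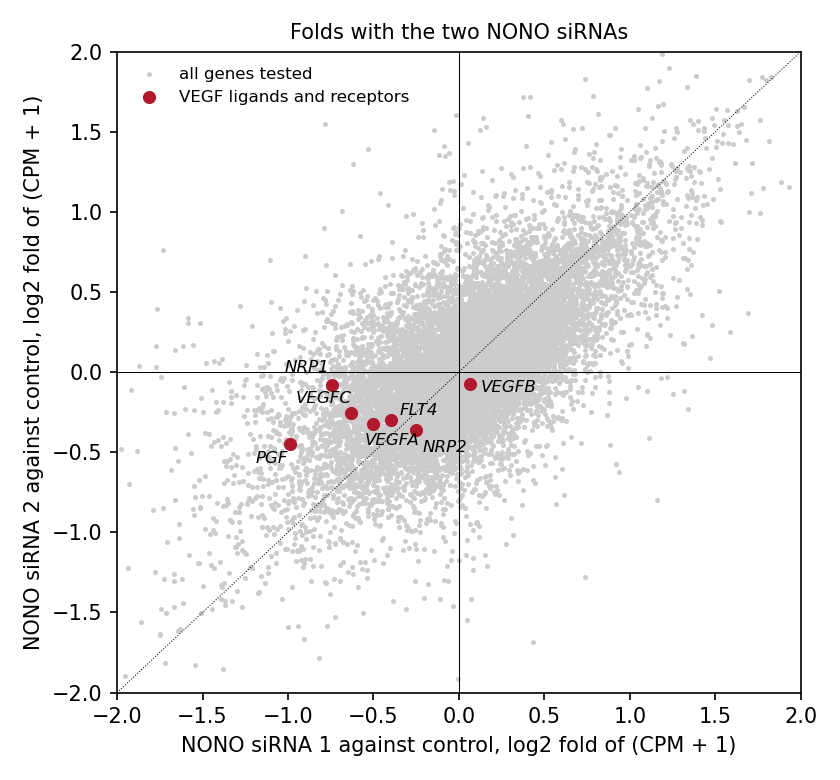
log2 fold of CPM + 1 against control for siRNA 1 (horizontal) and siRNA 2 (vertical), with all 13922 genes tested in grey and the VEGF ligands and receptors in red; 44 genes lie outside the axes, which end at 2 in each direction, and the dotted line marks equal folds. The 6 genes other than VEGFB sit at the lower left, inside the cloud of all genes, with PGF farthest at -0.99 and -0.45.

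The order of the levels depended on the length by which reads were divided. Per kilobase of all annotated exons, VEGFB was highest in the control library at 31.5 CPM per kb, followed by VEGFC at 16.7, VEGFA at 12.3, NRP1 at 2.21, NRP2 at 1.20, PGF at 0.71 and FLT4 at 0.29 CPM per kb. That order held in each of the 3 libraries. VEGFA has 32 annotated transcripts whose exons span 14431 bases, while its longest coding transcript has 3535 bases. Per kilobase of the longest coding transcript, VEGFA stood at 50.01 CPM per kb in the control library (48.6 to 51.4) and VEGFB at 35.3 CPM per kb (33.4 to 37.2). With siRNA 1 the same measure gave 35.2 CPM per kb for VEGFA (34.1 to 36.4) and 36.9 CPM per kb for VEGFB (35.1 to 38.9), so these neighbours did not differ beyond counting error there. With siRNA 2 VEGFA was again the higher, at 39.8 against 33.4 CPM per kb. NRP2 and PGF also lay close by this measure in the control library, at 2.49 (2.27 to 2.73) and 2.193 CPM per kb (1.81 to 2.63). Per kilobase of the principal transcript of VEGFA, which has only 1199 bases, VEGFA stood at 147, 104 and 117 CPM per kb in the control, siRNA 1 and siRNA 2 libraries, above VEGFB in each. Which VEGFA transcripts the cells made cannot be read from gene totals.

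Within the family, the balance of ligands moved towards VEGFB with both siRNAs, and further with siRNA 1. VEGFB took 18.0% of the reads on the 4 ligands in the control library (exact 95% binomial interval 17.2 to 18.9), 25.1% with siRNA 1 (24.0 to 26.3) and 20.6% with siRNA 2 (19.6 to 21.6). VEGFA took 65.4% (64.3 to 66.5), 61.4% (60.1 to 62.6) and 63.0% (61.8 to 64.2). The share of VEGFC was 15.0%, 12.7% and 15.1%, so siRNA 2 left it at the control value. PGF never took more than 1.56% of the ligand reads. Summed over the 4 ligands, the level was 270.2 CPM in control cells, 203 CPM after siRNA 1 and 223 CPM after siRNA 2.

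The neuropilin balance differed between the siRNAs. NRP1 took 60.5% of the reads on both neuropilins in the control library (57.6 to 63.3), 51.8% with siRNA 1 (48.4 to 55.3) and 65.3% with siRNA 2 (62.4 to 68.2). The siRNA 1 interval lay below both others, and those of control and siRNA 2 overlapped. These shares are of raw reads, so they compare libraries and not the amounts of different genes, and with 1 library per siRNA they have no replicate check.

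**Figure D4:**
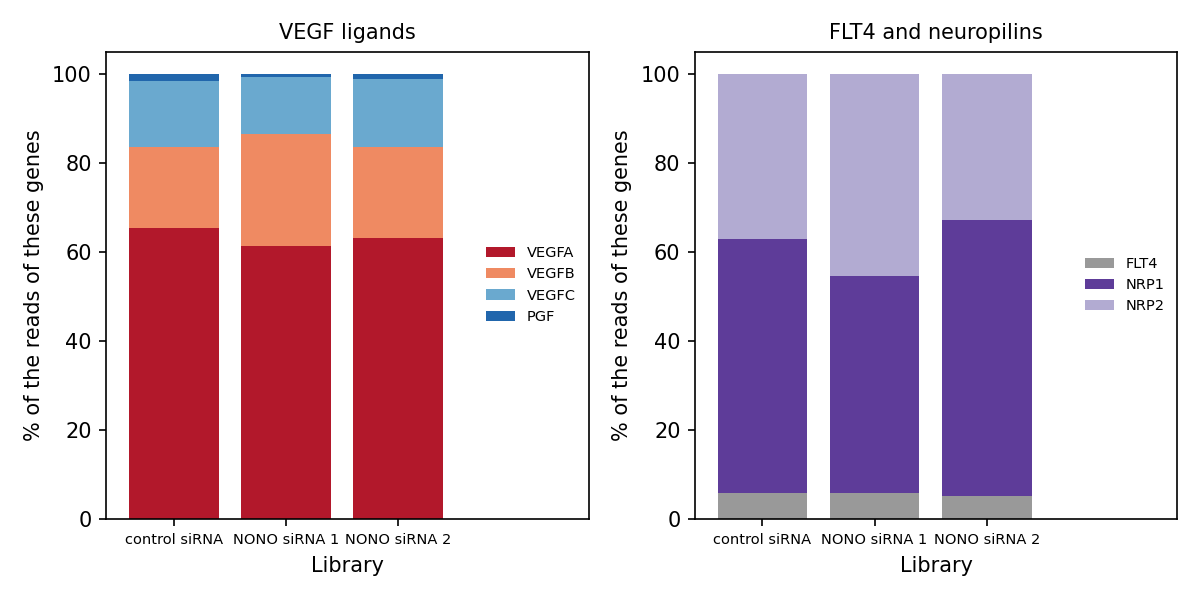
Share of reads, in % of the reads on the genes shown, for the 4 VEGF ligands (left) and for FLT4 and the neuropilins (right) in each library, without correction for gene length. The VEGFB segment is widest with siRNA 1 (25.1% of ligand reads, against 20.6% with siRNA 2 and 18.0% in the control library). NRP1 takes the smallest share of receptor reads with siRNA 1 (48.9% against 57.0% in the control library).

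Set directly against each other, the siRNA libraries differed most for NRP1 and PGF. NRP1 with siRNA 1 was at 61.8% of its level with siRNA 2 (54.7 to 69.8), PGF at 57.6% (39.5 to 83.3), VEGFC at 76.4% (69.4 to 84.1) and VEGFA at 88.4% (84.5 to 92.5). VEGFB was at 111% (103 to 119), and the intervals of FLT4 and NRP2 included 100%. Of the 7 genes, 5 were lower with siRNA 1 than with siRNA 2, against 47.3% of all genes tested. None differed by 2-fold on the log2 scale of CPM + 1, against 2.05% of all genes. The gap of -0.66 for NRP1 on that scale was exceeded in size by 8.17% of genes tested.

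The strands given in the labels of both NONO siRNAs were found in NONO transcripts, over 19 bases, so their opposite strands pair with NONO. The seed site of that opposite strand of NONO siRNA 1 occurred in the 3′ UTRs of NRP1, VEGFC and NRP2. The search took, per gene, the coding transcript with the longest 3′ UTR lying within its last exon. The motif was CATTCAT in the sense of the transcript, and 16.6% of the 11466 genes searched held it. The sites are shown from GENCODE 29 transcripts on GRCh38, written with T, with the match in capitals; all lie in the last exon.
NRP1, chr10:33179791-33179817, minus strand: ttgacataatCATTCATttcgacccct
NRP1, chr10:33178154-33178180, minus strand: cgagacagtcCATTCATcttagttaaa
NRP1, chr10:33178061-33178087, minus strand: tccccagagaCATTCATttagttgata
VEGFC, chr4:176683621-176683647, minus strand: attgtttctgCATTCATttttatagca
NRP2, chr2:205777838-205777864, plus strand: ccccttaaaaCATTCATggcatctggc

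NRP1 held 3 of these sites in a 3′ UTR of 2584 bases, and VEGFC and NRP2 held 1 each. NRP1 and VEGFC were lower with siRNA 1 than with siRNA 2, and NRP2, at 108% (93.7 to 125), was not. Genes without the CATTCAT site were lower as well: PGF at 57.6% (39.5 to 83.3) and VEGFA at 88.4% (84.5 to 92.5). Also without it, FLT4 was at 90.2% (60.4 to 134) and VEGFB at 111% (103 to 119). Among these genes the site thus did not separate those lower with siRNA 1 from the others. Over all genes searched, the median log2 difference of siRNA 1 from siRNA 2 was 0.04 for 9563 genes without the site, -0.13 for 1475 genes with 1 site, -0.24 for 312 genes with 2 and -0.20 for 116 genes with 3 or more. Genes with more sites also had longer 3′ UTRs, with medians of 1156 and 7038 bases for none and for 3 or more. The part of these sites in the values of NRP1 and VEGFC was not tested.

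The opposite strand of NONO siRNA 2 and both strands of the control siRNA had no seed site in the 3′ UTRs of the 7 genes. The strand of NONO siRNA 2 printed in the label had the site AGGGATG in VEGFA and PGF, which 14.3% of genes searched held.
VEGFA, chr6:43785290-43785316, plus strand: tcacaggtacAGGGATGaggacaccgg
PGF, chr14:74942287-74942313, minus strand: tgtccaaagtAGGGATGcggatcctgc
Both genes were higher with siRNA 2 than with siRNA 1, and both were lower with siRNA 2 than with the control siRNA. VEGFA was at 79.6% and PGF at 67.0% of control with siRNA 2. Medians over all genes with and without this site were not taken, and its part in these values was not tested. A match is a description of the sequence and does not show that the strand acted there.

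Genes that process VEGFC or set lymphatic fate did not move in a single direction. Of the 8 tested among 16 listed, 3 were higher and 3 lower with both siRNAs. None passed limma's test, edgeR or DESeq2, and 1 had an unadjusted p under 0.05 in limma. Of all genes tested, 37.8% were higher and 34.5% lower with both siRNAs, limma called 0.215%, and 11.4% had such an unadjusted p. Their median log2 folds were -0.34 and 0.06, beside 0.03 and 0.01 for all genes. FURIN, a protease that cleaves the VEGFC precursor, measured 47.4 CPM in control cells, 33.6 CPM after siRNA 1 and 37.5 CPM after siRNA 2, and PCSK7, a related convertase, measured 32.4, 48.9 and 38.4 CPM. For the transcription factor GATA2 the log2 folds were 0.26 and 0.22, and for NR2F2 they were 0.44 and 0.26. Chosen after their values were seen, SOX18, a factor of lymphatic specification, stood at 3.58, 1.02 and 1.68 CPM, and FOXC2, a factor of lymphatic valves, at 6.07, 4.28 and 2.20 CPM. CCBE1 and ADAMTS3, also chosen so, which together activate VEGFC outside the cell, had levels of 8.02, 5.58 and 8.25 CPM and of 5.67, 4.56 and 6.05 CPM.

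The other ligands and signalling partners of the neuropilins were divided as well. Of 9 tested among 13 semaphorin, plexin and adaptor genes, 2 were higher and 3 lower with both siRNAs, against 37.8% and 34.5% of all genes tested. None was called by any of the 3 tools, where limma called 0.215% of all genes. An unadjusted p under 0.05 in limma was found for 2, against 11.4% of all genes, and the median log2 folds were -0.09 and 0.16. SEMA3C, a semaphorin that binds both neuropilins, measured 133, 291 and 202 CPM under the control siRNA, siRNA 1 and siRNA 2 (limma adjusted p = 0.253). PLXND1, a semaphorin receptor of endothelial cells, stood at 44.3, 19.1 and 27.7 CPM (limma adjusted p = 0.272). PLXNA1, the plexin of highest CPM, had log2 folds of -0.23 and -0.60, and GIPC1, an adaptor that binds the NRP1 tail, had 0.05 and -0.24.

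Below the receptors, PTPN11 was called higher. Of 24 signalling genes tested among 27 listed, 7 were higher and 11 lower with both siRNAs, against 37.8% and 34.5% of all genes tested. Only PTPN11 was called by limma, as by edgeR and DESeq2, and these called 0.215%, 0.92% and 1.56% of all genes. An unadjusted p under 0.05 in limma was found for 6, against 11.4% of all genes, and the medians were -0.01 and -0.09. PTPN11, a tyrosine phosphatase that acts in growth factor signalling, rose from 166 CPM in the control library to 486 and 467 CPM (log2 folds 1.54 and 1.48, SE 0.21, limma adjusted p = 0.0368). That call was lost in limma with TMM scaling (adjusted p = 0.0751), without a trend (0.104), without a filter on low values (0.566) and with at least 1 CPM required in every library (0.0919). The adaptor SHC1 stood at 222, 137 and 170 CPM, the focal adhesion kinase PTK2 at 475, 527 and 458 CPM, and PXN, an adaptor of focal adhesions, at 296, 277 and 283 CPM, none of them called.

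Hypoxia-inducible factors (HIFs) are the best known inducers of VEGFA, and their sensors and targets had no called member. Of 18 tested among 20 listed, 6 were higher and 11 lower with both siRNAs, against 37.8% and 34.5% of all genes tested. An unadjusted p under 0.05 in limma was found for 6, against 11.4% of all genes. No tool called any, where limma called 0.215% of all genes, and the medians were -0.22 and -0.20. The HIF subunit EPAS1 measured 359, 545 and 579 CPM under the control siRNA, siRNA 1 and siRNA 2. The HIF targets BNIP3 and BNIP3L stood at 433, 270 and 283 CPM and at 370, 228 and 240 CPM, while NDRG1, also a target, stood at 221, 445 and 283 CPM. HIF1A, the subunit chosen after its values were seen, stood at 356, 222 and 216 CPM (limma adjusted p = 0.240).

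**Figure D5:**
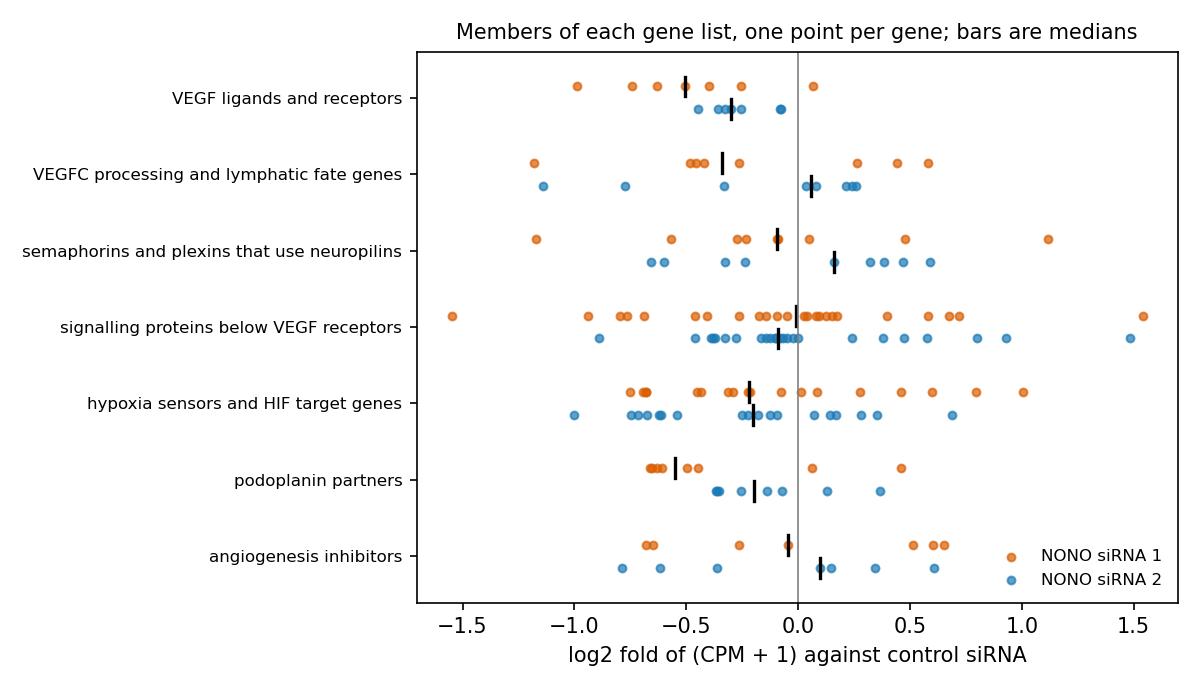
log2 fold of CPM + 1 against control for the tested genes of each list, 1 point per gene for siRNA 1 and for siRNA 2, with black bars at the medians. The medians lie at -0.50 and -0.30 for the VEGF ligands and receptors and at -0.55 and -0.20 for the podoplanin partners, and every list has points on both sides of 0.

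Markers of endothelium, the cells in which these receptors usually act, were read beside these values. Of 13 endothelial markers, 10 had a row in all tables, and their summed level was 102 CPM in control cells, 45.9 CPM after siRNA 1 and 61.8 CPM after siRNA 2. Of the 5 tested, 4 were lower and 1, ROBO4, was higher with both siRNAs, against 34.5% and 37.8% of all genes tested. None was called, where limma called 0.215% of all genes. Most of that sum came from TIE1, at 55.7, 15.4 and 30.2 CPM, and EGFL7, while VWF, EMCN, CLDN5, ERG and TEK stayed at or under 0.361 CPM in every library, and none of the 10 was at 0. Of the 6 lymphatic endothelial markers only SOX18 had a row in all tables. The 3 leukocyte markers with a row in all tables summed to 2.42 CPM or less, and the 3 such fibroblast markers to 27.0, 16.3 and 19.1 CPM. The cultures were of the UM-UC-3 line. Whether the line itself made these marker transcripts was not tested, nor was any part of other cells in the VEGF values.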

How the data were processed

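The authors deposited normalized values for each library, and their steps show that the unit is CPM. Whole reads could be recovered, within 0.01 reads, for 99.3% to 99.5% of values; all others equalled 0.5 of a read and were set to 0. The submitters' processing notes name bcl2fastq 2.19.1, HISAT2 2.1.0, HTSeq 0.6.1, hg19 and GRCh37 without roles. Neither an annotation release nor a strand setting is given in the sources used here. Without strand, reads of antisense genes, which overlap 1.30% of VEGFA, 4.87% of NRP1 and 1.06% of NRP2 exons, cannot be told apart.

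Genes in all 3 tables that reached 1 CPM in any of them were tested with limma 3.58.1 with a trend (R 4.3.3) on log2(CPM + 1), both NONO siRNAs against the lone control. This leaves 1 residual degree of freedom, beside 7.68 prior ones. P-values were two-sided, adjusted by Benjamini-Hochberg over all 13922 genes and called under 0.05. They rest on the spread between the siRNA 1 and siRNA 2 libraries and on a trend over all genes. That spread may hold differences between the siRNAs as well as technical ones, and the lone control library adds nothing to it. edgeR 4.0.16 (quasi-likelihood) and DESeq2 1.42.0 on the recovered reads called 156 and 190 genes. The limma and edgeR fits, but not the DESeq2 fit, were tested on simulated data. Those data held no difference in true level between the siRNAs, unlike what the real spread may hold. Poisson and binomial intervals are exact at 95%, and read pairs are not independent molecules. Symbols were matched for 21049 of 21308 genes, and coordinates, lengths and 3′ UTRs are those of GENCODE 29 (GRCh38), not of the builds in the notes.

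The genes and lists were chosen with earlier results of these data known. Besides the VEGF genes and NONO, genes of a list were named if called, then by highest mean CPM, up to 4 per list. Any other gene of these lists is said to be chosen after its values were seen. Cell type markers were named outside this rule, and TIE1, EGFL7 and ROBO4 were named after their values were seen. Alternatives were other pseudocounts, filters, scalings, tests and gene lengths, and leaving out each NONO siRNA.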

Additional observations from a re-analysis of the deposited data

How the results depend on the processing

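The log2 folds of the 7 VEGF genes kept their direction and stayed uncalled in all 63 combinations of gene and tested alternative, with a lowest adjusted p of 0.367; without NONO siRNA replicate 2, which allows no test, VEGFB turned from -0.01 to 0.06. Their median log2 fold of -0.41 was -0.30 without NONO siRNA replicate 1 and -0.50 without NONO siRNA replicate 2, and NONO itself was at -2.98 and -3.36. The limma call of NONO (mean log2 fold -3.17) was lost without a filter on low values (adjusted p = 0.566) or with at least 1 CPM in all 3 libraries (adjusted p = 0.0516). NONO stayed called in every other alternative with a test, edgeR and DESeq2 among them. The cause of the loss was not tested. The signalling list, with 1 gene called higher, had 0 called in limma without a filter, with at least 1 CPM in all 3 libraries, with TMM scaling and without a trend; the cause was not tested. Over all genes, limma called 19 higher and 11 lower, against 161 and 80 with upper-quartile scaling, 2 and 3 with TMM scaling, 0 and 3 without a trend, and 0 and 0 with either other filter; edgeR called 86 and 70 and DESeq2 131 and 59. All 7 genes kept their rank of level per length in the control library when the longest transcript replaced the exon union. With the principal or the longest coding transcript instead, both chosen after seeing the data, 4 of the 7 kept it. VEGFA, VEGFB and VEGFC then exchanged ranks, since VEGFA's coding transcripts are much shorter than its exon union. No paired analysis was possible because there was a single control library. The replicate numbers of the NONO siRNA group stand for different siRNAs, so a shared number does not mark a pair. PGF and FLT4 rested on 48 to 117 reads per library, which limits their precision.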

Other observations

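Other lists bear on podoplanin and on vessel growth. Among the 8 podoplanin partners tested of 9 listed, 5 were lower and 1 higher with both siRNAs, with medians of -0.55 and -0.20. None was called by limma, edgeR or DESeq2, and 1 had an unadjusted p under 0.05 in limma. Over all genes tested, 34.5% were lower and 37.8% higher with both siRNAs, limma called 0.215%, and 11.4% had such an unadjusted p. CD44, a hyaluronan receptor that binds podoplanin, measured 1218 CPM in control cells, 775 CPM after siRNA 1 and 952 CPM after siRNA 2. The membrane-actin linkers MSN and EZR stood at 1800, 1321 and 1714 CPM and at 239, 329 and 308 CPM, and the GTPase RHOA at 570, 594 and 518 CPM. Podoplanin itself was not analysed here.

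Of 7 angiogenesis inhibitors tested of 11 listed, 3 were higher and 3 lower with both siRNAs, with medians of -0.04 and 0.10. None was called by any of the 3 tools, and 1 had an unadjusted p under 0.05 in limma. Over all genes tested, 37.8% were higher and 34.5% lower with both siRNAs, limma called 0.215%, and 11.4% had such an unadjusted p. SPRY4, an inhibitor of receptor tyrosine kinase signalling, measured 194, 121 and 126 CPM under the control siRNA, siRNA 1 and siRNA 2. ADAMTS1, a protease that binds VEGFA, stood at 39.5, 56.8 and 50.3 CPM. COL18A1, the source of endostatin, stood at 27.0, 22.3 and 15.2 CPM, and VASH1, an inhibitor made by endothelial cells, at 3.29, 5.51 and 3.74 CPM.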
